A study of Homo sapiens with 4 samples.

Results

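Microexons are very short exons, here the skipped exons of 3 to 30 nt for which inclusion was quantified in both cell lines. Of 33165 skipped exons listed for both lines, 880 were microexons, and 485 of these had at least 10 informative reads in each line. An informative read fits only the isoform that contains the exon (an inclusion read) or only the isoform that lacks it (an exclusion read). The parental cells were MDA-MB-231, an established human triple-negative breast cancer cell line, and the second group was MDA-LM2, its highly lung-metastatic derivative, abbreviated LM2. Both lines carried no treatment and were grown in the same DMEM-based medium with serum, and 2 samples of each were sequenced from total RNA. Each line is represented by 1 table that names no replicate, taken here as pooled, so the spread between samples cannot be given. The question was how the use of exons differed between the parental and the metastatic population.

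Microexons add only a few amino acids to a protein, often on a surface where partners bind. They are best known from neurons, where the splicing activator SRRM4 promotes their inclusion and PTBP1 represses many of them in other cells. An exon this short leaves little room for the enhancer sequences and protein contacts that define longer exons, so its inclusion depends on signals in the introns on either side. A length divisible by 3 keeps the reading frame whether the exon is used or skipped.

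The sequences below show the DST microexon, which the test of reads called, and 3 pairs of microexons from related genes, because several of them carry the results that follow. Capitals mark the microexon and lower case the adjoining 20 bases of the exons spliced to it, 5′ to 3′ in the direction of transcription, taken from GENCODE release 29 transcripts in hg38. All of the bases shown are coding.
DST: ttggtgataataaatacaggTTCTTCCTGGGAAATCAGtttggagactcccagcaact
MARK2: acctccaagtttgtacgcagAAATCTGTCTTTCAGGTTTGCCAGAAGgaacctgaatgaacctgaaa
MARK3: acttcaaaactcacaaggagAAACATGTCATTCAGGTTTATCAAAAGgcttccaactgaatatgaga
PPP3CB: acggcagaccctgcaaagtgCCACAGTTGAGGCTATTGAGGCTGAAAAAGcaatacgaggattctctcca
PPP3CA: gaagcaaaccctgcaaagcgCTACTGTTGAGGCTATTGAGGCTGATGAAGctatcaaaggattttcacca
CLASP1: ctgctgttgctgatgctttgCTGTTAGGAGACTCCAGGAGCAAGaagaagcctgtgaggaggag
CLASP2: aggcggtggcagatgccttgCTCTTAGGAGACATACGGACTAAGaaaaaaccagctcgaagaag

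Further sequences stand for the other results. MTMR1 and PICALM had microexons at intermediate levels, MAP4K4 had a microexon of 9 nt at a low steady level, SRC has a microexon known from neurons, and AP2M1 had the shortest class of all.
MTMR1: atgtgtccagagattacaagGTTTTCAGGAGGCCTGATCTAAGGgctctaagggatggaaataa
PICALM: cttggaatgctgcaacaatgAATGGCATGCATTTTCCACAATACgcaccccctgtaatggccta
MAP4K4: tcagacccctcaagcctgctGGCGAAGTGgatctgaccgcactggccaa
SRC: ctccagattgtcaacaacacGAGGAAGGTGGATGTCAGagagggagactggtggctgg
AP2M1: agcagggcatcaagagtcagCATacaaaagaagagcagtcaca

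The 485 microexons lay mostly in coding sequence and mostly kept the reading frame. Coding sequence held 385 of them, noncoding transcripts 45, 5′ untranslated regions 26 and 3′ untranslated regions 7, and 22 matched no annotated exon. The length was divisible by 3 in 339, which is 69.9%, against 41.4% of all 21624 skipped exons with the same read minimum. Among coding microexons the share was 75.8%, and in 5′ untranslated regions it was 34.6%. It was 85.7% at 3 to 6 nt, 59.8% at 28 to 30 nt and 47.3% at 31 to 60 nt. A total of 282 microexons lay wholly in coding sequence and kept the frame. Of these, 136 began between codons, 85 after the first base of a codon and 61 after the second.

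**Figure D1:**
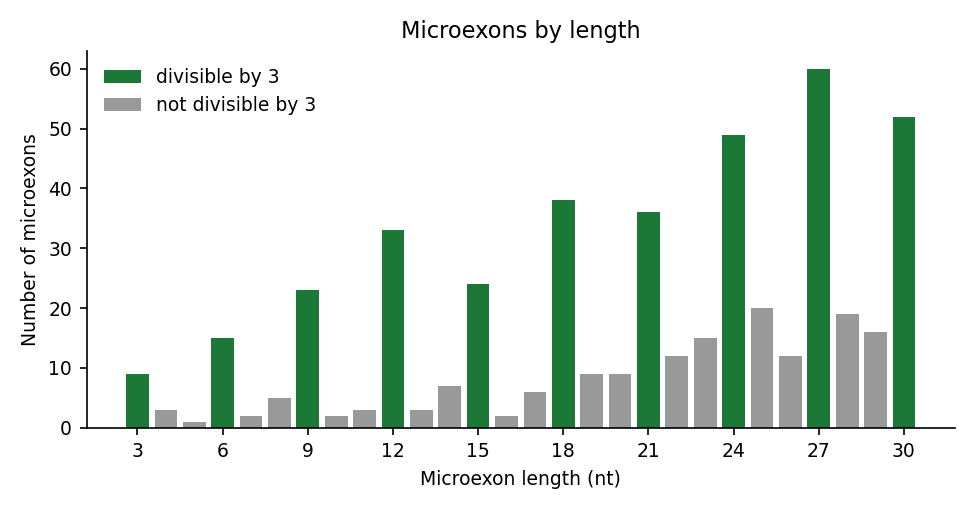
Number of microexons with at least 10 informative reads in each line (vertical axis) at each length in nt (horizontal axis), green where the length is divisible by 3 and grey where it is not. The most common lengths are 27 nt with 60 microexons, 30 nt with 52 and 24 nt with 49.

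Other features were set beside all exons tested, which include the microexons. The share ending in G was close, and median GC content and flanking intron lengths were lower in microexons. The last base of the exon was G in 79.9% of the 463 microexons that matched an annotated exon, against 80.0% of the annotated exons of any length. Their median GC content was 45.0%, against 48.4% for all annotated exons tested. The median flanking introns were 1908 nt upstream and 1924 nt downstream, against 2248 and 2099.5 nt for all exons tested. Microexons fell in 428 genes, 41 of which had more than 1. RPS24, which encodes a small ribosomal subunit protein, had 6. There were 14 overlapping pairs among them, 7 of which differed by 3 nt at 1 end, and 64 microexons shared an end with a longer listed exon, so members of 1 gene can share exclusion reads.

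Most microexons were skipped in both lines. The deposited inclusion level, a fraction from 0 to 1, had a median of 0.05 in LM2 and 0.04 in parental cells, against 0.76 and 0.75 for all exons tested. It was at most 0.1 in both lines for 301 of 485 microexons (62.1%, against 24.1% of all exons) and at least 0.9 in both for 50 (10.3%, against 32.7%). In 218 microexons (44.9%) no inclusion read was found in either line, against 4.84% of all exons. These 218 still had deposited levels of up to 0.13, because the level is a posterior mean and does not reach 0 at low depth. Their levels are therefore given below with the read counts. The median number of informative reads per microexon was 46 in LM2 and 63 in the parental line, against 68 and 87 for all exons.

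**Figure D2:**
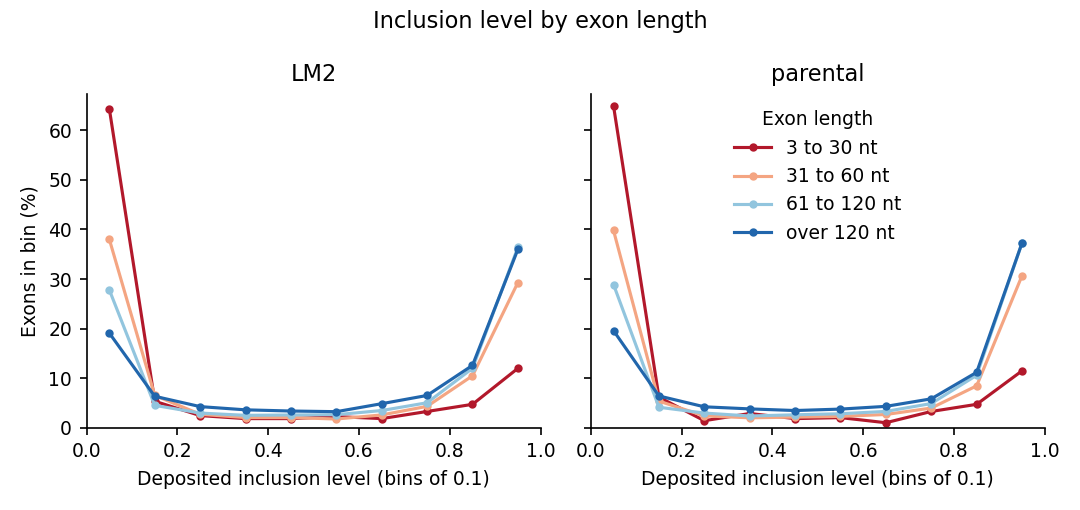
Share of exons in percent (vertical axis) in each 0.1-wide bin of deposited inclusion level (horizontal axis), for LM2 and parental cells and 4 ranges of exon length. Microexons of 3 to 30 nt peak in the lowest bin, where longer exons have smaller shares, and have the smallest share in the highest bin.

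Detection of inclusion increased with length. At least 1 inclusion read in either line was found for 2 of 28 microexons of 3 to 6 nt, 9 of 30 of 7 to 9 nt, 23 of 72 of 10 to 15 nt, 59 of 100 of 16 to 21 nt, 114 of 168 of 22 to 27 nt and 60 of 87 of 28 to 30 nt. The share was 7.14% in the shortest class, 31.9%, 59.0%, 67.9% and 69.0% in the last 4 classes, and 85.0% at 31 to 60 nt. At the length limit, the 87 exons of 28 to 30 nt had a median level of 0.09 in LM2 and 0.07 in the parental line, and the 110 exons of 31 to 33 nt had 0.11 and 0.08. Single lengths varied more, with medians of 0.15 in both lines at 30 nt (52 exons), 0.68 and 0.69 at 31 nt (29 exons) and 0.46 and 0.61 at 32 nt (24 exons). A short exon leaves few bases for a read to be placed in it, and how far alignment lowered the inclusion reads of the shortest exons was not tested.

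**Figure D3:**
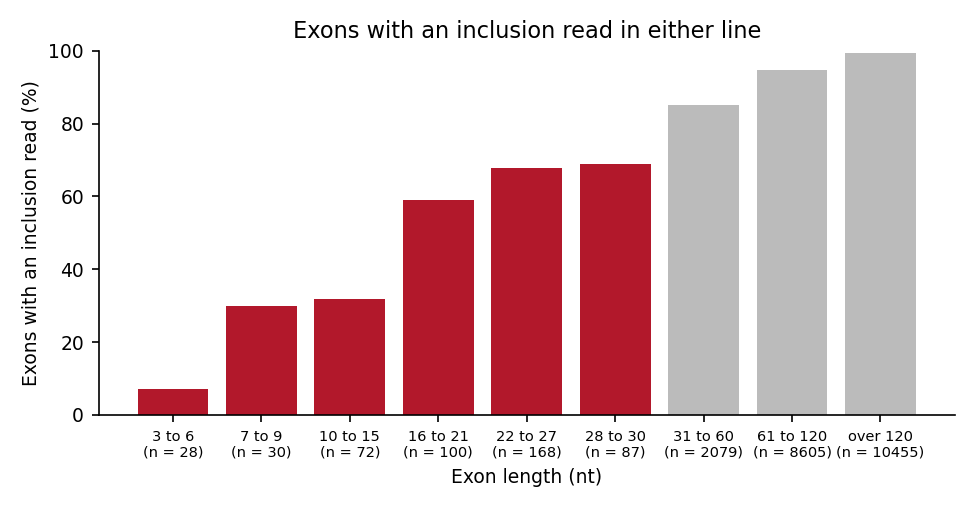
Share of exons in percent with at least 1 inclusion read in either line (vertical axis) by exon length in nt (horizontal axis, number of exons in brackets), red for microexons and grey for longer exons. The share goes from 7.14% at 3 to 6 nt to 69.0% at 28 to 30 nt.

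The shortest microexons were at or near the floor of detection. AP2M1, which encodes the medium subunit of the clathrin adaptor AP-2, has a 3-nt exon (chr3:184180842-184180844, plus strand, coding) that adds 1 codon between codons. The event places only 4 nt between this exon and the next, the only member with a flanking intron under 50 nt. It had 1 inclusion and 370 exclusion reads in LM2, compared with 0 and 648 in the parental table. That is 0.270% in LM2, and 0 of 648 allows a share of up to 0.463%. The other 3-nt exons that were best covered showed no inclusion read. VDAC3, a channel of the outer mitochondrial membrane, had 0 inclusion reads against 212 exclusion reads in LM2 and 211 in the parental line. RPS24 had 0 against 66 and 154, MON2 0 against 31 and 49, and the receptor gene NOTCH2 0 against 24 and 46. Floors and intervals on reads cover counting error only.

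A few microexons under 10 nt were nevertheless used in nearly every informative read. PITPNC1, a phosphatidylinositol transfer protein, has an 8-nt coding exon (chr17:67553610-67553617, plus strand) with 33 inclusion reads in LM2 and 26 in parental cells and no exclusion read in either. Its paralogue PITPNA had an 8-nt exon that matched no annotated exon, with 137 inclusion and 5 exclusion reads in LM2, compared with 136 and 16 in the parental table. NUDT5, a nucleotide-sugar hydrolase, had a 9-nt coding exon with 39 inclusion and 0 exclusion reads in LM2, compared with 75 and 1 in the parental table. These 3 genes were picked after their values were seen, as the highest levels below 10 nt. The lengths of 8 nt are not divisible by 3. Coding microexons that did not keep the frame were at least 0.9 in both lines in 24.7% of 93, against 8.22% of 292 that kept it. The PITPNA exon is not among these 93, because it matched no annotated exon. Length was not held constant in this comparison. Over all microexons the share at 0.9 or more was 0% at 3 to 6 nt and 17.2% at 28 to 30 nt.

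Between LM2 and parental cells, few microexons were called different, and all 6 that passed a rule with a minimum difference were higher in LM2. The authors' deposited table gives each exon a difference, LM2 minus parental, and a Bayes factor, which weighs a difference against equal levels. Where that table gives a difference of 0.2 or more together with a Bayes factor of 10 or more, an exon is counted as called, and 5 of 485 microexons were called, 5 higher and 0 lower in LM2. The single direction depends on this limit. A Bayes factor limit of 5 added CPSF7, higher in LM2, and CD46, lower in LM2. Over all exons with the read minimum 238 of 21624 were called, which is 1.10%, with 0.846% higher and 0.254% lower. The microexons' 1.03% is close to that share. Among exons with a mean level of 0.1 to 0.9, where a difference of this size is easier to reach, 5 of 115 microexons were called against 2.76% of 8611 exons.

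A test of the reads gave a smaller set. The inclusion and exclusion reads of each exon were compared by a two-sided Fisher's exact test, adjusted by Benjamini-Hochberg over all 21624 exons. At an adjusted p of 0.05 and a minimum change of 0.1 in the share of inclusion reads it called 2 microexons, DST and DHX30, against 0.379% of all exons. This test compares the pooled libraries and not the conditions, since it holds no spread between samples. Without the minimum difference it called 5 microexons, adding FLNA, HNRNPC and RPS24, against 0.638% of all exons.

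**Figure D4:**
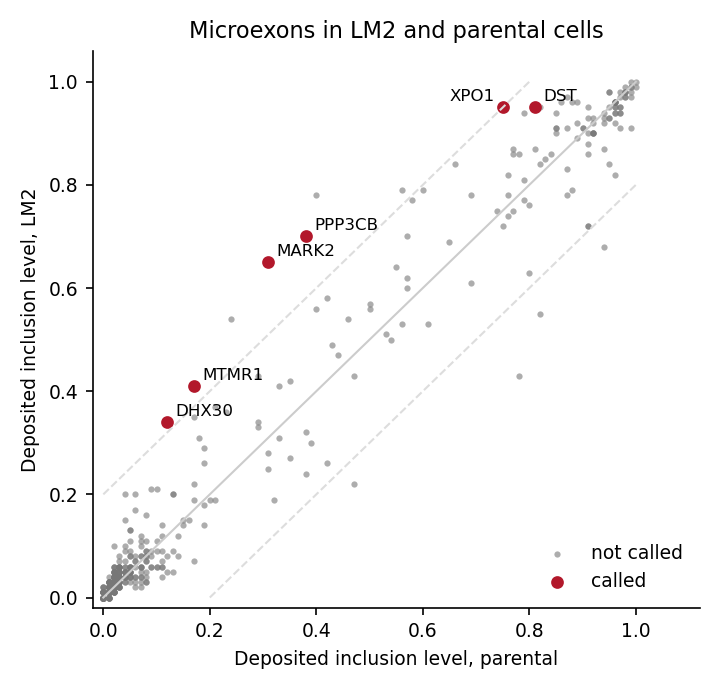
Deposited inclusion level of the 485 microexons in parental cells (horizontal axis) and LM2 (vertical axis), with the line of equality and dashed lines at a difference of 0.2. The 6 called by either rule (red, named) lie above the line of equality.

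DST encodes dystonin, a plakin that links the cytoskeleton to other structures. Its 18-nt coding exon (chr6:56468982-56468999, minus strand) was at 0.95 (deposited interval 0.92 to 0.97) in LM2 but 0.81 (0.77 to 0.84) in the parental line. Its counts were 312 inclusion and 12 exclusion reads in LM2, compared with 393 and 72 in the parental table. The intervals did not overlap, and the odds of inclusion were 4.76 times higher in LM2 (exact 95% interval 2.51 to 9.81, Fisher's exact test, adjusted p = 1.96e-05). The difference of 0.14 in the authors' deposited table is below 0.2, and its Bayes factor there is at the highest value the table holds.

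DHX30, an RNA helicase gene, was called by both rules. Its 29-nt exon (chr3:47819236-47819264, plus strand, partly coding) was at 0.34 (0.23 to 0.47) in LM2 but 0.12 (0.08 to 0.18) in the parental line. Its counts were 25 inclusion and 27 exclusion reads in LM2, compared with 20 and 93 in the parental table. The odds of inclusion were 4.26 times higher in LM2 (exact 95% interval 1.95 to 9.50, Fisher's exact test, adjusted p = 0.0241), and the authors' deposited table gives a Bayes factor of 124.07.

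PPP3CB and MARK2 are signalling genes, encoding a catalytic subunit of the calcium-dependent phosphatase calcineurin and a kinase that acts on microtubule-associated proteins. The 30-nt PPP3CB exon (chr10:73439872-73439901, minus strand, coding) was at 0.70 (0.55 to 0.85) in LM2 but 0.38 (0.28 to 0.49) in the parental line. Its counts were 38 inclusion reads in each line, with 7 exclusion reads in LM2 and 35 in the parental line. The odds ratio was 4.93 (exact 95% interval 1.86 to 14.8), and the adjusted p of Fisher's exact test was 0.0531. The 27-nt MARK2 exon (chr11:63906088-63906114, plus strand, coding) was at 0.65 (0.53 to 0.78) in LM2 but 0.31 (0.17 to 0.47) in the parental line. In LM2 36 reads included it and 13 skipped it, with 12 of each in parental cells, and the odds ratio of 2.73 had an exact 95% interval of 0.881 to 8.66, which includes no difference.

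MTMR1 encodes a phosphatase of membrane phosphoinositides. Its 24-nt coding exon (chrX:150712342-150712365, plus strand) was at 0.41 (0.30 to 0.52) in LM2 but 0.17 (0.10 to 0.24) in the parental line. Its counts were 35 inclusion and 40 exclusion reads in LM2, compared with 18 and 68 in the parental table, an odds ratio of 3.28 (exact 95% interval 1.57 to 7.02, Fisher's exact test, adjusted p = 0.0941). The authors' deposited table gives a Bayes factor of 2276.97, the highest of the 5 exons called from it. The event of a neighbouring 27-nt MTMR1 exon has this 24-nt exon as its upstream exon. It had no inclusion read, against 29 exclusion reads in LM2 and 12 in the parental line. These exclusion reads come from transcripts that contain the 24-nt exon, so their number is not independent of its inclusion.

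XPO1, which encodes the main nuclear export receptor, differed in the deposited level but little in the informative reads. The 26-nt exon lies in the 5′ untranslated region (chr2:61537562-61537587, minus strand) and was at 0.95 (0.89 to 0.99) in LM2 but 0.75 (0.60 to 0.87) in the parental line. Its counts were 149 inclusion and 2 exclusion reads in LM2, compared with 89 and 3 in the parental table, so inclusion reads made up 98.7% and 96.7%. The odds ratio of 2.50 had an exact 95% interval of 0.281 to 30.5. The posterior mean also uses reads that fit both isoforms, 663 in LM2 and 773 in parental cells, and their part in the difference was not tested.

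FLNA went the opposite way in the reads. FLNA encodes filamin A, which crosslinks actin filaments, and its 24-nt coding exon (chrX:154357251-154357274, minus strand) had 622 inclusion and 145 exclusion reads in LM2, compared with 515 and 58 in the parental table. Inclusion reads were 81.1% in LM2 and 89.9% in parental cells, an odds ratio of 0.483 (exact 95% interval 0.342 to 0.676, Fisher's exact test, adjusted p = 0.00229). The deposited levels were 0.72 (0.69 to 0.76) and 0.75 (0.71 to 0.80), with overlapping intervals. The authors' deposited table gives a Bayes factor of 0.15 for it. The read-based difference is below 0.1, as it is for HNRNPC and RPS24. The 26-nt exon in the 5′ untranslated region of HNRNPC, an hnRNP protein gene, had inclusion reads of 96.4% in LM2 and 93.5% in parental cells. Its deposited levels were 0.95 (0.94 to 0.96) in LM2 and 0.91 (0.90 to 0.92) in the parental line, with a Bayes factor of 7650712.55. The 22-nt exon in the 3′ untranslated region of RPS24 had 10.2% and 18.3% (Fisher's exact test, adjusted p = 6.92e-10), lower in LM2. Its deposited levels were 0.06 (0.05 to 0.07) in LM2 and 0.11 (0.10 to 0.12) in the parental line. Those intervals did not overlap, and its Bayes factor is at the same highest value as that of DST. This RPS24 exon overlaps a 25-nt member with which it shares its exclusion reads.

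The related pairs printed above were found by comparing all 274 coding windows of full length (the microexon with its adjoining 20 bases on each side) between different genes, excluding chromosomes 1 and 8, for equal length and at least 60% identical bases. This gave 5 pairs. PPP3CB and PPP3CA, both calcineurin catalytic subunits, share 26 of 30 microexon bases. The PPP3CA exon (chr4:101029166-101029195, minus strand) was at 0.01 in each line, with 0 inclusion and 77 exclusion reads in LM2, compared with 1 and 135 in the parental table. It was nearly always skipped where the PPP3CB exon was used in part. CLASP1 and CLASP2, which bind growing microtubule ends, share 17 of 24 bases. The CLASP1 exon (chr2:121409024-121409047, minus strand) was at 0.29 (0.22 to 0.37) in LM2 and 0.19 (0.12 to 0.26) in the parental line, from 45 inclusion and 81 exclusion reads against 25 and 83. The CLASP2 exon (chr3:33574473-33574496, minus strand) had no inclusion read against 51 exclusion reads in LM2 and 93 in the parental line.

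MARK2 and MARK3 share 21 of 27 bases, and the MARK3 exon (chr14:103498502-103498528, plus strand) was at 0.70 (0.53 to 0.87) in LM2 and 0.57 (0.39 to 0.79) in the parental line, from 37 inclusion and 2 exclusion reads against 27 and 1. Inclusion reads made up 94.9% in LM2 and 96.4% in the parental line, the opposite direction to the deposited levels. MXI1 and MXD1, transcriptional repressors that pair with MAX, share 24 of 30 bases and had levels of 0.94 and 0.92 in LM2 and 0.96 and 0.94 in parental cells. The 22-nt exons of the zinc finger genes ZNF714 and ZNF431 are identical, and reads may not be separable between them.

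**Figure D5:**
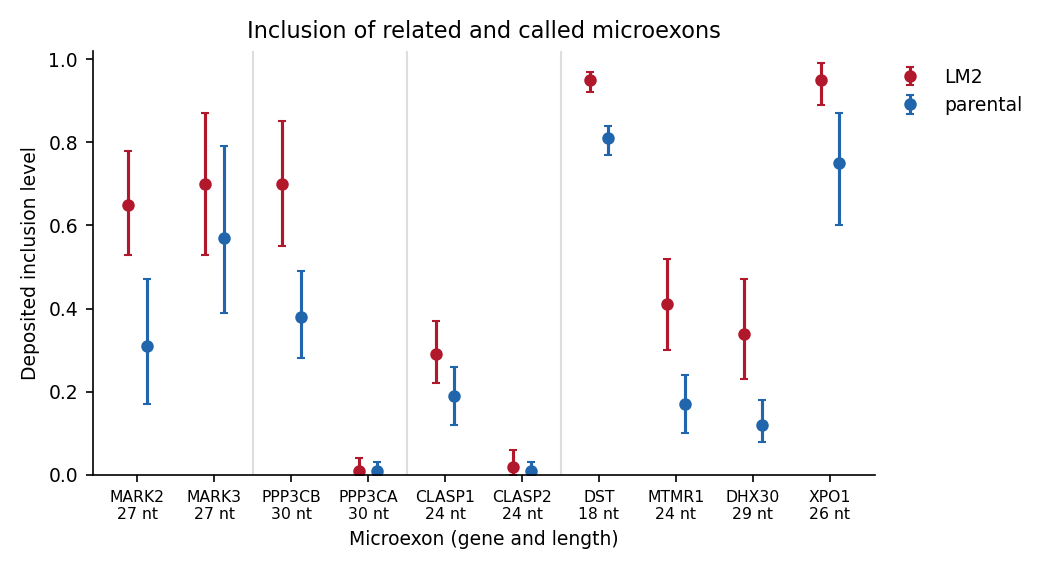
Deposited inclusion level (vertical axis) with its deposited interval (bars) of 10 microexons in LM2 (red) and parental cells (blue), the first 6 in related pairs. The PPP3CA and CLASP2 exons lie near 0 and those of PPP3CB and CLASP1 above them.

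Genes were grouped by lists that are selections, so the counts per list do not cover whole classes. Membrane traffic genes held 32 microexons in 25 genes, and neither rule called any, against 8 of all 295 skipped exons of these genes in the authors' deposited table and 1.10% of exons in all genes. Their median level was 0.04 in LM2 and 0.03 in parental cells, 29 kept the frame and 14 had no inclusion read. The 24-nt exon of PICALM, a clathrin assembly protein (chr11:85978070-85978093, minus strand, coding), was at 0.26 (0.17 to 0.35) in LM2 but 0.42 (0.35 to 0.50) in the parental line. Its counts were 26 inclusion and 46 exclusion reads in LM2, compared with 88 and 79 in the parental table, and the intervals met at 0.35. The 12-nt exon of DNM2, a dynamin that cuts vesicles from membranes, was at 0.26 (0.19 to 0.34) and 0.19 (0.13 to 0.25), with overlapping intervals. PPFIBP1, a liprin, was at 0.87 and 0.81 with a 30-nt exon, and SNX14, a sorting nexin, at 0.14 and 0.19 with a 27-nt exon.

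Cytoskeleton, motor and adhesion genes held 48 microexons in 36 genes. The authors' deposited table called none and the test of reads called 1, in DST. Of all 386 skipped exons of these genes the authors' deposited table called 11, and over all genes the shares were 1.10% in that table and 0.379% by the test of reads. Their median level was 0.03 in LM2 and 0.02 in parental cells, 37 were at most 0.1 in both lines and 43 kept the frame. AFDN encodes afadin, which ties cell junctions to actin, and its 21-nt exon (chr6:167913403-167913423, plus strand, coding) was at 0.58 (0.49 to 0.66) in LM2 but 0.42 (0.36 to 0.48) in the parental line. Its counts were 72 inclusion and 40 exclusion reads in LM2, compared with 109 and 117 in the parental table, an odds ratio of 1.93 (exact 95% interval 1.18 to 3.17, Fisher's exact test, adjusted p = 0.358). The deposited intervals did not overlap, and the authors' deposited table gives a Bayes factor of 7.81, under 10.

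The list of kinase, phosphatase and GTPase regulator genes, which leaves out MTMR1, held 26 microexons in 19 genes. The authors' deposited table called 2 of these microexons higher in LM2, PPP3CB and MARK2, and 0 lower. Of all 296 skipped exons of these genes 6 were called, and 1.10% of exons in all genes. Their median level was 0.02 in both lines. MAP4K4, a kinase of the Ste20 family, has a 9-nt exon (chr2:101868029-101868037, plus strand, coding) at 0.15 (0.11 to 0.19) in LM2 and 0.16 (0.12 to 0.20) in the parental line. In LM2 47 reads included it and 245 skipped it, with 52 and 241 in parental cells, and the odds ratio of 0.889 had an exact 95% interval of 0.563 to 1.40. This was the best covered exon under 10 nt at an intermediate level. AXL, a receptor kinase named here after its values were seen, has a 27-nt coding exon at 0.20 (0.17 to 0.24) in LM2 but 0.13 (0.10 to 0.16) in the parental line. The deposited intervals did not overlap and the authors' deposited table gives a Bayes factor of 14.75, but the 123 inclusion and 203 exclusion reads in LM2 and 89 and 179 in the parental table gave an odds ratio of 1.22 (exact 95% interval 0.857 to 1.74).

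The list of chromatin and transcription genes held 8 microexons. That of RNA processing and translation genes, which leaves out DHX30, held 7. None was called from the authors' deposited table or by the test of reads at a difference of 0.1. Of all skipped exons of the genes in these lists the authors' deposited table called 4 of 323 and 5 of 254, and 1.10% over all genes. NCOR1, a nuclear receptor corepressor, has a 27-nt exon at 0.47 (0.39 to 0.55) in LM2 and 0.44 (0.37 to 0.50) in the parental line, with 74 inclusion and 52 exclusion reads against 121 and 98. CPSF7, a subunit of a cleavage factor for messenger RNA ends, had a 27-nt exon at 0.78 (0.58 to 0.96) and 0.40 (0.21 to 0.66) with 23 and 12 inclusion reads, the latter under the 20 asked of the largest changes, and no exclusion read in either line. The authors' deposited table gives a Bayes factor of 6.29, under 10, and every informative read included the exon in both lines.

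The 8 largest increases with at least 20 informative reads in each line were the 5 called exons and those of VPS29, KIFC3 and OCRL. The 12-nt exon of VPS29, a retromer subunit (chr12:110499535-110499546, minus strand, coding), was at 0.77 (0.67 to 0.86) in LM2 but 0.58 (0.49 to 0.68) in the parental line, from 73 inclusion and 16 exclusion reads against 75 and 39. The 24-nt exon of OCRL, a phosphoinositide 5-phosphatase gene, was at 0.35 and 0.17, and the 29-nt exon of KIFC3, a kinesin gene, at 0.84 and 0.66. KIFC3 had 53 inclusion and 4 exclusion reads in LM2, compared with 21 and 2 in the parental table, so that inclusion reads made up 93.0% and 91.3%. For VPS29, OCRL and KIFC3 the deposited intervals overlapped.

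The 8 largest decreases with the same 20 reads had differences of at most 0.17 in size in the authors' deposited table, and none was called. Below that read number and named after their values were seen, USP13 was at 0.43 in LM2 and 0.78 in the parental line (12 and 17 informative reads), KIF3A at 0.55 and 0.82 (10 and 29), RAB11A at 0.68 and 0.94 (14 and 46) and CD46 at 0.22 and 0.47 (15 and 40). RAB11A and CD46 had no exclusion read in either line. SUCO had a 21-nt coding exon (chr1:172577539-172577559, plus strand) at 0.63 (0.52 to 0.73) in LM2 but 0.80 (0.71 to 0.87) in the parental line, from 64 inclusion and 26 exclusion reads against 99 and 18. PTS, an enzyme of tetrahydrobiopterin synthesis, had a 23-nt coding exon at 0.84 (0.77 to 0.90) and 0.95 (0.92 to 0.98), with 19 and 8 exclusion reads. DIAPH2, a formin, was at 0.24 and 0.38 with a 21-nt exon, SENP6, a SUMO protease, at 0.30 and 0.39 with a 21-nt exon, and PLSCR1 at 0.78 and 0.87 with a 26-nt exon. JPT1, at 0.82 and 0.96, and TGFBI, at 0.91 and 0.99, had no exclusion read in either line. The eighth was PICALM.

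Over all members the difference was centred on 0, with quartiles of -0.01 and 0.02. Among the 115 with a mean level of 0.1 to 0.9, LM2 was higher in 67 and lower in 46, with a median difference of 0.03 and quartiles of -0.04 and 0.10. The median over all 8611 exons of that level range was 0.01, and 51.1% were higher. A difference of at least 0.1 was found in 45 microexons, 32 higher and 13 lower in LM2, which is 9.28% against 15.2% of all exons. The split by direction at this limit was not computed over all exons. It was at least 0.2 in 12, and 7 of these had a Bayes factor under 10 in the authors' deposited table.

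The next values are of single microexons known from neurons. They were picked after their values were seen and from no fixed list, so they do not describe neuronal microexons as a class. The 18-nt exon of SRC (chr20:37386460-37386477, plus strand, coding), which lengthens a loop of the SH3 domain, had none against 17 and 22, a depth that allows up to 17.6% and 13.6%. The 9-nt exon of AP1S2 had none against 82 and 160. The 21-nt exon of the translation factor gene EIF4G1 had 3 inclusion reads in each line against 214 and 243 exclusion reads, and that of EIF4G3 none against 48 and 77. MEF2D, a transcription factor of muscle and neurons, had 3 inclusion and 12 exclusion reads in LM2, compared with 0 and 18 in the parental table for a 21-nt exon.

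Not all short exons of motor and adaptor genes were silent. MYO5A, a myosin that moves vesicles, had a 9-nt exon at 0.54 (0.38 to 0.68) in LM2 and 0.46 (0.28 to 0.64) in the parental line, from 19 inclusion and 14 exclusion reads against 14 of each. AP1B1, a subunit of the adaptor AP-1, had a 9-nt exon at 0.69 (0.52 to 0.84) and 0.65 (0.44 to 0.89), from 17 inclusion and 6 exclusion reads against 11 and 4. Both were picked after their values were seen, and the intervals of the lines overlapped in each.

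Genes that encode regulators of microexons and splice sites were read through their own skipped-exon events, since no gene expression table was used. Reads of the best covered event of a gene, other than those that fit neither isoform, were divided by the line's total of such reads, 17366605 in LM2 and 21716937 in parental cells. In such bulk values fewer cells and less RNA per cell cannot be told apart, and a change in the use of the event's exons also moves them. Of 37 regulators 29 had at least 20 reads. With a ratio of at least 2-fold and an exact 95% interval that excludes 1, 1 was higher and 3 were lower in LM2, against 12.1% of 9467 genes. RBM24, which activates muscle exons, had 995 reads in LM2 and 505 in parental cells, a ratio of 2.46 (2.21 to 2.75). RBM47, an epithelial splicing regulator, had 3 and 186, a ratio of 0.0202 (0.00412 to 0.0599), and NOVA1, a neuronal one, 3 and 26 (0.144, 0.0280 to 0.471). SRRM3, a relative of SRRM4, had 23 and 61 (0.471, 0.278 to 0.773). PTBP1 was at 1.04 (0.972 to 1.11) and QKI at 1.53 (1.42 to 1.65). SRRM4 and 6 other regulators had no listed event, which does not measure their expression. These intervals cover counting error only. Whether these values bear on any microexon was not tested.

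The marker genes fixed for the cell lines bear on the labels only in part. Of 6 mesenchymal markers CD44, AXL and ZEB1 had at least 20 reads, with 38259, 2883 and 580 in LM2 and 54542, 3916 and 1225 in parental cells. Divided by the line totals, the ratios were 0.877 (0.866 to 0.889), 0.921 (0.877 to 0.966) and 0.592 (0.535 to 0.654), none past 2-fold. Of 7 epithelial markers ESRP2, an epithelial splicing regulator, had most reads, 401 in LM2 and 289 in the parental line (ratio 1.74, 1.49 to 2.03). CDH1, the epithelial cadherin gene, had 11 and 13, and ESR1, the oestrogen receptor gene, 1 and 1. Of 6 neuronal markers only MAP2 had at least 20 reads, with 15 in LM2 and 73 in parental cells, and none of 3 muscle markers had a listed event. CD74, an immune marker that tumour cells can express, had 15 reads in LM2 and 658 in the parental line, the blood marker PTPRC had 5 and 2, and the vessel marker PECAM1 had no listed event. Their part in the results was not tested.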

How the data were processed

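Total RNA libraries (ScriptSeq v2, per the labels' protocols) came from 2 samples of MDA-MB-231 and 2 of MDA-LM2. STAR 2.7 and hg38 are named in the submitters' processing notes. Per the file headers, MISO gave each skipped exon an inclusion level as a fraction with an interval, and raw read counts in 4 classes. A further table deposited by the authors compares the lines and gives the difference, LM2 minus parental, as a score and the Bayes factor as a ratio. Not given in the sources used here are MISO's version and settings, the level of the interval and how replicates were combined. The labels do not say whether replicates came from separate cultures.

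One event stood for each exon, the one with most informative reads, and 10 such reads were required in each table. The read-based level is inclusion over inclusion plus exclusion reads. Fisher's exact tests, exact conditional odds ratios, exact Clopper-Pearson based ratio intervals and floors of 3 counts used scipy 1.17.1, and Benjamini-Hochberg adjustment statsmodels 0.14.6. The test was checked on reads simulated with counting error only, so the check does not cover spread between samples. Genes and sequences came from GENCODE release 29.

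The members and gene lists were chosen with earlier results of these data known. Named exons were those called by either rule, the 8 largest increases and 8 largest decreases among exons with 20 or more informative reads per table, up to 4 per gene list, by reads, at levels of 0.1 to 0.9 (otherwise the best covered one, which for the regulators was HNRNPH1, at 0.96 in both lines), and the 5 shortest. Others are marked in the text. Results on some exons are not reported here. Alternatives varied the read minimum, the length limit, the thresholds, the event chosen and the level used.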

Additional observations from a re-analysis of the deposited data

Results flagged for a closer look

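One microexon with many inclusion reads fell outside the comparison because the parental table does not list it. It is a 9-nt exon of ROBO1, a receptor for the guidance protein SLIT (chr3:78693348-78693356, minus strand). In LM2 it had 19 inclusion and 0 exclusion reads and a deposited level of 0.94 (interval 0.80 to 1.00). Of 25 microexons listed for LM2 only, it was the only one with at least 10 informative reads, and of 116 listed for parental cells only none had that many. No parental value exists for it, so no difference is given.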

How the results depend on the processing

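The number of microexons called from the authors' deposited table was 5, and it was 3 with a length limit of 27 nt, where the 29-nt DHX30 and 30-nt PPP3CB exons drop out by construction. Under the other 5 alternatives it was 5 to 7. The 7 came with a Bayes factor of at least 5, which added CPSF7, higher in LM2, and CD46. CD46 was lower in LM2 by 0.25, with a Bayes factor of 5.22. The test of reads called 2, and 1 with a length limit of 27 nt or when the read-based difference had to reach 0.2, and 3 with at least 20 informative reads or with inclusion reads divided by 2. The median level of 0.05 in LM2 became 0.000782 with read-based levels, 0.000391 with inclusion reads divided by 2, 0.03 with at least 20 informative reads and 0.16 with no read minimum. The median of 0.04 in parental cells became 0, 0, 0.02 and 0.125. The median difference stayed 0. The share divisible by 3, 69.9%, was 70.0% among annotated exons, 68.1% with no read minimum and 70.2% without overlapping pairs, an alternative chosen after seeing the data. Of 34 named exons 3 moved by more than the deposited intervals with read-based levels, 4 when inclusion reads were also divided by 2, and none with the event of narrowest intervals. For CPSF7 the difference became 0, and for XPO1 0.019 in place of 0.20. For FLNA it became -0.088 in place of -0.03. DST moved only with inclusion reads divided by 2, to 0.197 in place of 0.14. No called difference changed sign. No paired analysis was possible because the tables carry no replicate numbers, and for the same reason no replicate could be left out. Depth was a median of 46 informative reads per microexon in LM2 and 63 in the parental line, which limits how small a difference can be seen.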
